A study of Mus musculus with 8 samples.

Results

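The immunoglobulin heavy chain locus was followed through its own rows of the count matrix in Eμ-Myc lymphoma cells after a brief BET inhibition. Members were all rows whose Ensembl identifier maps to a mouse symbol of a heavy chain V, D or J segment or of a heavy chain constant region. This gave 207 of the 43629 genes in the matrix, of which 175 were V, 20 D, 4 J and 8 constant region rows. Lines #1.1 and #1.2 are lymphoma cell lines of C57BL/6 background, both carrying the Eμ-Myc transgene, which drives Myc from the enhancer of this same locus in B lineage cells. The 4 groups were line 1.1 in JQ1, line 1.1 in DMSO, line 1.2 in JQ1 and line 1.2 in DMSO. Early passage cells of each line received 250 nM JQ1, a small molecule that blocks the acetyl-lysine pocket of BET bromodomain proteins, or the solvent DMSO, and RNA was taken at 2 h. Each of the 4 groups held 2 libraries. Whether these came from separate cultures is not stated, so p-values measure the spread between libraries, which may be technical. Whether the lines came from separate tumours is not stated either.

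A heavy chain gene is assembled in B cell precursors by joining a V, a D and a J segment upstream of the constant regions. The assembled exon is transcribed together with Ighm, which encodes the μ chain of IgM, and with Ighd, which encodes the δ chain of IgD and lies just downstream. Mature B cells make both chains from a long primary transcript by alternative splicing and 3′ end choice, a step known in mice to need Zfp318. The γ, ε and α constant regions are reached only after class switching. An intronic enhancer between the J segments and Ighm (Eμ) and a 3′ regulatory region control transcription of the locus, and the octamer factors Pou2f1 and Pou2f2 with their coactivator Pou2af1 bind V promoters and enhancers.

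The members spanned chr12:113254830-116000461 of GRCm38 on the minus strand. Reads fell on few of them. Of the 207 rows, 22 held at least 1 read over the 8 libraries, 185 held none, and 12 held at least 10. Sequences of the V rows with most reads, and of the J rows, are shown from the GENCODE M21 transcripts on this build. Ighv10-1 at chr12:114479005-114479304 and Ighv10-3 at chr12:114523441-114523740 are shown because both took reads and are nearly alike, and capitals mark the bases at which they differ.

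Ighv10-1: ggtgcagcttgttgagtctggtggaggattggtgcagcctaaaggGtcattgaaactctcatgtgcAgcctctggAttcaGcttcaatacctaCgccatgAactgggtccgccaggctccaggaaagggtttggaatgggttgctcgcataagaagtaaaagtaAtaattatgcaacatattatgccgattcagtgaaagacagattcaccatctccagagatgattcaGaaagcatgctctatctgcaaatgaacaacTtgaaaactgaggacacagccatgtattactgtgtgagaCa
Ighv10-3: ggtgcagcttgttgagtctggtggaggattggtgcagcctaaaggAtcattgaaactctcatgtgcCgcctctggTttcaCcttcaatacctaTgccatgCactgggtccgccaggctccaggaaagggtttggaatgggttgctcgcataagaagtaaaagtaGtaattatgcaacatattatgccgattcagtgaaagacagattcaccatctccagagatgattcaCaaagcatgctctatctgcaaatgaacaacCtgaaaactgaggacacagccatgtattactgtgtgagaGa

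These 300 bases at the 3′ end of each V exon matched at 290 positions, an identity of 96.67%, with 10 differences. Of 251 windows of 50 bases, 29 were identical and 196 (78.09%) differed at 2 bases or fewer. The read length is not given in the sources used here, so reads may have been shared or lost between the pair and the values of Ighv10-3 are uncertain to that extent. No other V segment matched Ighv10-1 at more than 84.67% of these bases.

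The second V row by reads, Ighv1-28 at chr12:114809421-114809720, is annotated as a pseudogene and is shown with its in-frame stop codon in capitals.

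Ighv1-28: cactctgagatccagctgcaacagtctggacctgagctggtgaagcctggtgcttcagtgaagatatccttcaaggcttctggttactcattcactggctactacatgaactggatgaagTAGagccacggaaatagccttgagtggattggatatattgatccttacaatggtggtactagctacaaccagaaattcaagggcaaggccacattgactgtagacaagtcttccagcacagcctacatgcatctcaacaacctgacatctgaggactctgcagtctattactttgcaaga

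Its 351-base transcript read from the first ATG held 1 stop codon, at codon 58, while the transcripts of Ighv10-1 and Ighv10-3 held 0. The closest other V row was Ighv1-31, at 92.33% of 300 bases, which had 19 reads in all.

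The 4 J segments, which supply the last part of the assembled V exon, are shown with the tryptophan codon and the next 2 bases in capitals, the start of the motif shared by heavy chain J segments.

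Ighj1: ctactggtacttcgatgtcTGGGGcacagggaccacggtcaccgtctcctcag
Ighj2: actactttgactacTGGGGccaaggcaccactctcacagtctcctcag
Ighj3: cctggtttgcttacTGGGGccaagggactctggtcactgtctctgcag
Ighj4: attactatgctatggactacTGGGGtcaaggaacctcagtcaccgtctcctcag

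They lie at chr12:113429781-113429833, chr12:113429468-113429515, chr12:113429085-113429132 and chr12:113428514-113428567. Their rows cover 48 to 100 annotated bases.

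**Figure D1:**
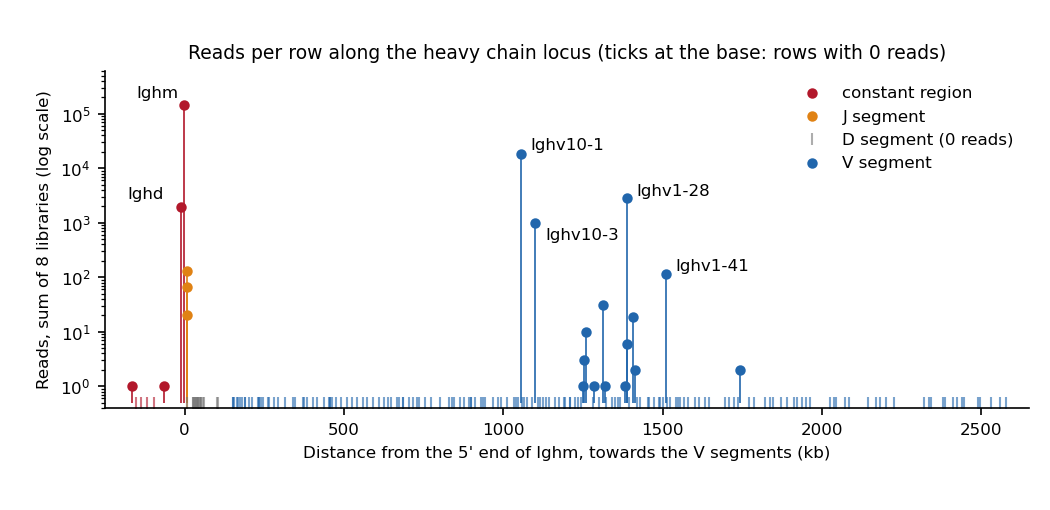
Reads summed over the 8 libraries (log scale) for each member row, placed by its distance in kb from the 5′ end of Ighm towards the V segments. Points are rows with reads and ticks at the base are rows with 0 reads, and a reader should see Ighm and Ighd at the constant end, Ighv10-1, Ighv10-3 and Ighv1-28 standing alone among the V rows, and every D row at 0.

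The libraries held 10347453 to 13049877 gene reads, of which heavy chain rows took 17626 to 24442, or 0.1641 to 0.2123%. A count of 0 allows up to 3 reads, or 0.23 to 0.29 CPM here (counts scaled to a common library size), for counting error only. Replicates of every group differed by more than sampling noise, most in line 1.1 DMSO (chi-square per degree of freedom 4.09, against 1.36 to 2.14 in the other 3 groups). Markers of the B lineage were present, with 10 of 10 tested. Of the T, NK, myeloid and stromal lists, 5 of 12, 4 of 7, 4 of 11 and 5 of 7 genes had 0 reads. Cd3e, Ncr1, Lyz2 and Col1a1 were among these, and the other genes of the lists had reads. Summed over their lists, markers of other cell types reached at most 16.5 CPM (12 T cell genes), 0.99 CPM (7 NK cell genes), 13.95 CPM (11 myeloid genes), 0.67 CPM (7 erythroid genes) and 1.66 CPM (7 stromal genes). The T cell list lay at 6.11 to 7.11 CPM in line 1.1 JQ1, 14.6 to 14.8 in line 1.1 DMSO, 5.55 to 5.67 in line 1.2 JQ1 and 15.8 to 16.5 in line 1.2 DMSO, and Cd2, the 1 of its genes tested, fell by a log2 of 1.36 (SE 0.10). The myeloid list lay at 13.1 to 13.95 CPM in line 1.1 JQ1, 5.54 to 6.79 in line 1.1 DMSO, 10.4 to 12.1 in line 1.2 JQ1 and 7.49 to 8.03 in line 1.2 DMSO, and of 3 genes tested Cd68 rose by 1.74 (SE 0.13) and the other 2 fell. The stromal list lay at 0.248 to 0.274 CPM in line 1.1 JQ1, 1.147 to 1.443 in line 1.1 DMSO, 0.177 to 0.352 in line 1.2 JQ1 and 1.63 to 1.66 in line 1.2 DMSO, and Cdh5, the 1 gene tested, fell by 3.35 (SE 0.50). The NK cell list was also lower in line 1.1 JQ1 (0.0826 to 0.0912 CPM) than in line 1.1 DMSO (0.7595 to 0.8605), while its ranges overlapped in line 1.2. The part of these lists in the heavy chain changes was not tested. The row Gm42418, known to overlap ribosomal RNA sequence, stood at 474.6 and 493.1 CPM in line 1.1 JQ1, 361.3 and 976.5 CPM in line 1.1 DMSO, 1296 and 2644 CPM in line 1.2 JQ1, and 383 and 340.6 CPM in line 1.2 DMSO.

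Of the constant regions, Ighm carried nearly all reads in both lines. Ighm had 18818 and 17496 reads in line 1.1 JQ1, 18505 and 15098 in line 1.1 DMSO, 20883 and 20287 in line 1.2 JQ1, and 17437 and 18423 in line 1.2 DMSO. By mean CPM (1592) it was the 53rd most abundant of all genes. Ighm made up 97.99 to 99.45% of constant region reads, and Ighd made up the rest but for 2 reads. Ighg3 and Igha had 1 read each, and Ighg1, Ighg2b, Ighg2c and Ighe had 0. The 6 switched constant regions were thus at or under the limit that a count of 0 allows in every library.

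Ighd rose in JQ1 in both lines, by 3.28-fold on average, beside a 1.14-fold rise of Ighm. Ighd had 318 and 352 reads in line 1.1 JQ1, against 125 and 83 in line 1.1 DMSO. In line 1.2 it had 399 and 415 reads in JQ1, against 129 and 127 in DMSO. All 4 JQ1 libraries lay above all 4 DMSO libraries, with no overlap. On the scale of CPM, Ighd averaged 29.2 ± 4.12 in line 1.1 JQ1 and 8.71 ± 1.10 in line 1.1 DMSO, and 35.96 ± 1.18 in line 1.2 JQ1 and 11.1 ± 0.80 in line 1.2 DMSO (SD, n = 2 each). In edgeR's quasi-likelihood test over all 12413 genes tested, the lines averaged a log2 change of 1.71 with an SE of 0.08 and a Benjamini-Hochberg adjusted p of 2.30e-18. Of all genes tested, 162 (1.31%) changed upwards at least as much. In bulk samples a change in the cells that carry an RNA and in the RNA per cell cannot be told apart, and all changes are relative to the reads of each library.

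Taken by line, the log2 change of Ighd was 1.72 (SE 0.12, adjusted p = 1.07e-13) in line 1.1 and 1.7 (SE 0.11, adjusted p = 2.30e-14) in line 1.2 with the same edgeR test. The difference between lines, 1.2 minus 1.1, was -0.02 (SE 0.17, adjusted p = 0.987 in edgeR).

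Ighm rose as well, by a small amount with little spread. It averaged 1575 ± 28.6 CPM in line 1.1 JQ1 and 1425 ± 27.0 in line 1.1 DMSO, and 1818 ± 28.0 in line 1.2 JQ1 and 1550 ± 34.3 in line 1.2 DMSO (SD, n = 2 each). Within each line both JQ1 libraries lay above both DMSO libraries. Averaged over lines, the log2 change was 0.19 with an SE of 0.03 and an edgeR adjusted p of 1.42e-06, or 1.14-fold, and 29.1% of all genes tested rose at least as much. Its change was 0.14 (SE 0.04, edgeR adjusted p = 0.00402) in line 1.1 and 0.23 (SE 0.04, adjusted p = 2.25e-05) in line 1.2. In line 1.1 the call was lost without JQ1 replicate 2, where the adjusted p was 0.0643.

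**Figure D2:**
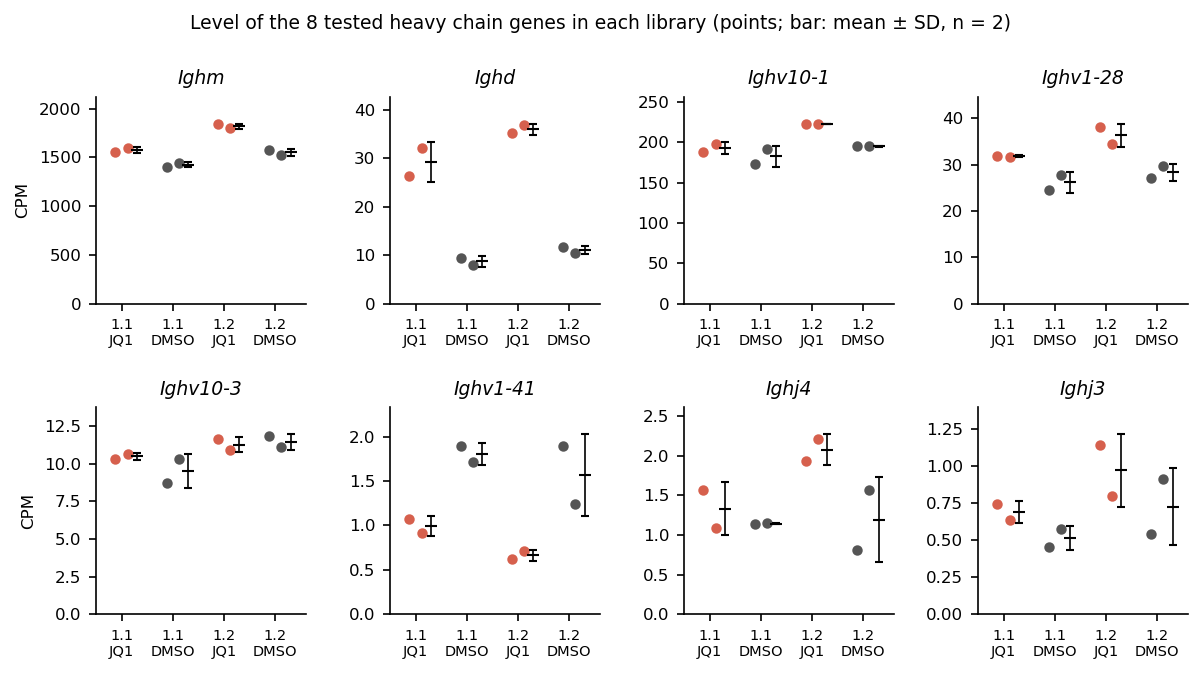
Level in CPM (linear axes from 0) of the 8 tested heavy chain genes in each library, with JQ1 libraries in red left of the DMSO libraries in grey for lines 1.1 and 1.2, and the mean ± SD of 2 libraries as a bar. Ighd separates JQ1 from DMSO libraries (29.2 and 35.96 against 8.71 and 11.1 CPM on average), Ighv1-41 separates them the other way, and Ighm and Ighv10-1 show small steps.

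Since Ighm and Ighd are read from a shared primary transcript, their ratio was taken within each library. There were 16.9 and 20.1 Ighd reads per 1000 Ighm reads in line 1.1 JQ1, against 6.755 and 5.50 in line 1.1 DMSO. Line 1.2 had 19.1 and 20.5 in JQ1, against 7.40 and 6.89 in DMSO. The lowest JQ1 library lay above the highest DMSO library. The log2 ratio was 1.53 higher in JQ1 than in DMSO, a 2.89-fold difference. An exact two-sided permutation test of labels within lines gave p = 0.0556, the smallest that its 36 regroupings allow. In line 1.1 the difference was 1.59 and in line 1.2 it was 1.465. Line 1.2 exceeded line 1.1 by 0.16 in this log2 ratio, which was not past the threshold (exact permutation p = 0.167).

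As a share of constant region reads, Ighd made up 1.82 ± 0.22% in line 1.1 JQ1 and 0.61 ± 0.09% in line 1.1 DMSO, and 1.94 ± 0.09% in line 1.2 JQ1 and 0.71 ± 0.04% in line 1.2 DMSO (SD, n = 2 each). The Wilson 95% intervals of single libraries, which cover counting error only, ran no lower than 1.49% in JQ1 and no higher than 0.87% in DMSO. Ighd thus remained a minor constant region in all 8 libraries.

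**Figure D3:**
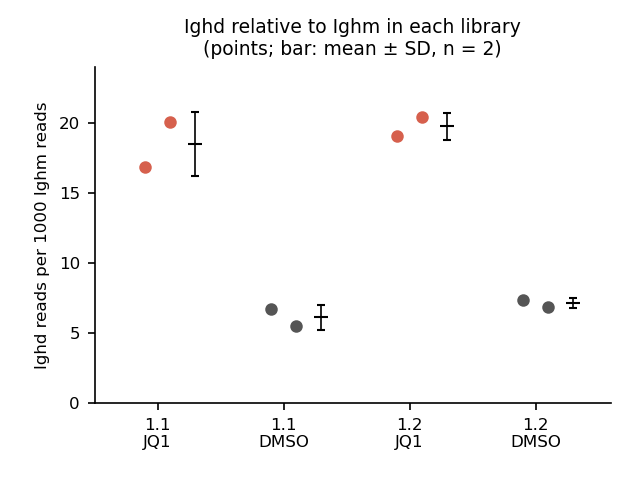
Ighd reads per 1000 Ighm reads in each library (points) with the mean ± SD of 2 libraries per group (bar), for lines 1.1 and 1.2 in JQ1 (red) and DMSO (grey). JQ1 libraries sit between 16.9 and 20.5 and DMSO libraries between 5.50 and 7.40.

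V usage was led by the same 3 segments, in the same order, in both lines and both treatments. Ighv10-1 took 80.93 to 82.78% of V reads per library, Ighv1-28 took 11.45 to 13.88% and Ighv10-3 took 4.05 to 5.0%. Ighv1-41, an annotated pseudogene, took 0.22 to 0.91%. Of the other V rows with reads, Ighv1-21-1 had 31 reads in all, Ighv1-31 had 19 and Ighv1-18 had 10, and the other 8 had fewer than 10. The remaining 160 V rows had 0 reads. At 2426 to 3120 V reads per library, the Wilson 95% interval of the Ighv10-1 share was at its widest from 81.05 to 84.06% in line 1.1 DMSO replicate 2.

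**Figure D4:**
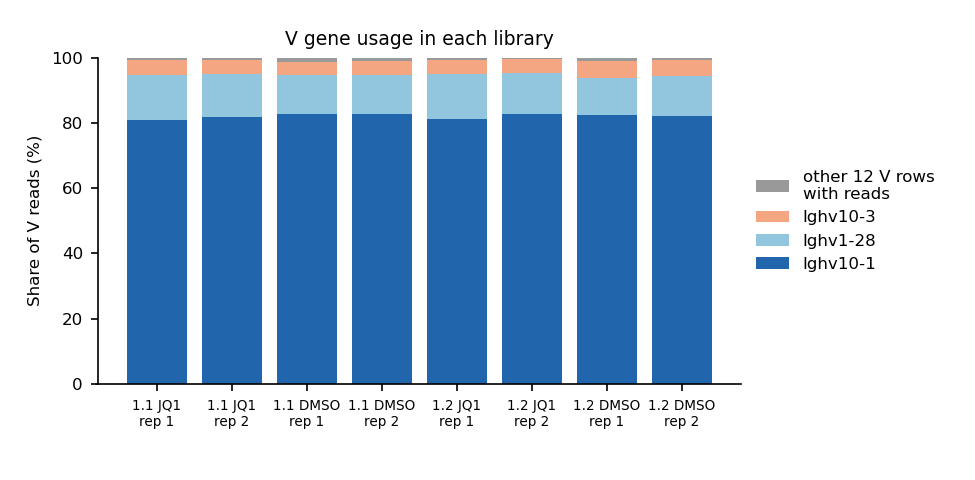
Share of V reads (%, bars stacked to 100) of Ighv10-1, Ighv1-28, Ighv10-3 and the other 12 V rows with reads, in each of the 8 libraries. Ighv10-1 takes 80.93 to 82.78% in each, and the order of the segments is the same in both lines and both treatments.

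Ighv10-1 had 2271 and 2173 reads in line 1.1 JQ1, 2284 and 2004 in line 1.1 DMSO, 2532 and 2507 in line 1.2 JQ1, and 2158 and 2363 in line 1.2 DMSO. In CPM this was 193 ± 7.41 and 182.5 ± 12.8 in JQ1 and DMSO of line 1.1, and 223 ± 0.43 and 195 ± 0.61 in JQ1 and DMSO of line 1.2 (SD, n = 2 each). The libraries of line 1.1 overlapped between treatments and those of line 1.2 did not. It rose by a log2 of 0.14 on average (SE 0.04, edgeR adjusted p = 0.00139). The change was 0.19 (SE 0.05, adjusted p = 0.00207) in line 1.2, and 0.08 (SE 0.05, adjusted p = 0.183) in line 1.1. With a library left out, the change in line 1.1 ran from 0.0046 to 0.1551, the highest without DMSO replicate 2. Against Ighm it kept a narrow ratio, 12.07 to 13.27 Ighv10-1 reads per 100 Ighm reads over the 8 libraries.

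The pseudogene Ighv1-28 also rose. It had 387 and 348 reads in line 1.1 JQ1, against 324 and 290 in line 1.1 DMSO, and 433 and 389 in line 1.2 JQ1, against 300 and 358 in line 1.2 DMSO. In CPM the lowest JQ1 library (31.7) lay above the highest DMSO library (29.6). Over both lines its change averaged 0.32 in log2 (SE 0.06, edgeR adjusted p = 3.80e-05), with 0.29 (SE 0.09) in line 1.1 and 0.35 (SE 0.09) in line 1.2. Per 100 Ighv10-1 reads it had 16.5 ± 0.73 in line 1.1 JQ1 and 14.3 ± 0.20 in line 1.1 DMSO, and 16.3 ± 1.12 in line 1.2 JQ1 and 14.5 ± 0.88 in line 1.2 DMSO (SD, n = 2 each). The difference between the changes of these 2 rows was not tested. In line 1.1 alone its adjusted p of 0.00714 became 0.113 without DMSO replicate 1 and 0.0692 in DESeq2.

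Ighv10-3 did not pass the threshold. It had 125 and 117 reads in line 1.1 JQ1, 115 and 108 in line 1.1 DMSO, 132 and 123 in line 1.2 JQ1, and 131 and 134 in line 1.2 DMSO. Over lines its log2 change averaged 0.06 (SE 0.10, edgeR adjusted p = 0.585). Relative to Ighv10-1 it stayed at 4.91 to 6.07 reads per 100.

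Ighv1-41 was the V row that fell. It had 13 and 10 reads in line 1.1 JQ1, against 25 and 18 in line 1.1 DMSO, and 7 and 8 in line 1.2 JQ1, against 21 and 15 in line 1.2 DMSO. All JQ1 libraries lay below all DMSO libraries. In log2 the fall averaged -1.04 over lines (SE 0.28, edgeR adjusted p = 0.00159). At these low counts the calls within lines (-0.86 with adjusted p = 0.0481 in line 1.1, and -1.22 with adjusted p = 0.0154 in line 1.2) were not stable. DESeq2 gave adjusted p of 0.257 and 0.118, and leaving out either JQ1 or either DMSO library of line 1.1, or in line 1.2 either JQ1 library or DMSO replicate 1, raised edgeR's adjusted p within that line to 0.0528 or more.

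Counts per row cannot show which J segment was joined. Among the J rows, Ighj4 had the most reads. It had 19 and 12 reads in line 1.1 JQ1, 15 and 12 in line 1.1 DMSO, 22 and 25 in line 1.2 JQ1, and 9 and 19 in line 1.2 DMSO. Ighj3 had 9 and 7 reads in line 1.1 JQ1, 6 and 6 in line 1.1 DMSO, 13 and 9 in line 1.2 JQ1, and 6 and 11 in line 1.2 DMSO. Neither passed the threshold, with averaged log2 changes of 0.50 (SE 0.26, edgeR adjusted p = 0.0963) for Ighj4 and 0.42 (SE 0.36, adjusted p = 0.313) for Ighj3. Without line 1.2 DMSO replicate 2, Ighj4 did pass (0.79, adjusted p = 0.0286). Ighj2 had 20 reads in all, too few to test, Ighj1 had 0, and the 20 D rows had 0. The D rows cover 10 to 29 annotated bases, so 0 reads on rows this short cannot show whether D sequence was transcribed.

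Per length of annotated exon, the order of levels over the 8 libraries was Ighm (844 ± 81.7 CPM per kb), Ighv10-1 (552 ± 46.8), Ighv1-28 (87.4 ± 12.4), Ighv10-3 (28.35 ± 2.55), Ighj4 (26.6 ± 8.78), Ighj3 (15.1 ± 4.68), Ighd (11.2 ± 6.60), Ighv1-41 (3.83 ± 1.58) and Ighj2 (2.19 ± 1.68; SD, n = 8). These SDs include the difference between JQ1 and DMSO, and neighbours changed places between groups. The J rows cover only 48 to 100 annotated bases, so their values are scaled up from few reads and their places are uncertain. Ighv10-3 and Ighj4 averaged 29.9 ± 1.34 and 38.5 ± 3.67 CPM per kb in line 1.2 JQ1 and 25.3 ± 2.99 and 21.2 ± 0.11 in line 1.1 DMSO, and lay within 1 SD of Ighj4 of each other in line 1.1 JQ1 and line 1.2 DMSO (SD, n = 2 each). Ighj3 averaged 14.4 ± 1.55 and 20.2 ± 5.10 CPM per kb in JQ1 of lines 1.1 and 1.2, within 1 SD of Ighj3 from Ighd, and 10.7 ± 1.74 and 15.1 ± 5.44 in DMSO of lines 1.1 and 1.2, above Ighd by more than 1 SD. Ighv1-41 was below Ighj2 in line 1.2 JQ1 (2.01 ± 0.20 and 3.97 ± 0.60) and above it on average in the other 3 groups. Ighd moved within this order by treatment, with 15.4 and 18.9 CPM per kb on average in JQ1 of lines 1.1 and 1.2, and 4.59 and 5.83 in DMSO of lines 1.1 and 1.2.

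Of the 8 members tested, 4 rose (Ighd, Ighm, Ighv10-1 and Ighv1-28), 1 fell (Ighv1-41) and 3 did not pass the threshold in the averaged JQ1 effect. Over all 12413 genes tested, 62.2% were called, 30.8% upwards and 31.4% downwards, so the share of members called (5 of 8) was near that of all genes. The median log2 change was 0.26 over the 8 members and 0.0036 over all genes tested. Rows read from the same heavy chain transcript are not independent, so these counts and this median do not rest on 8 separate genes. In line 1.1, 4 members were called (2 without its JQ1 replicate 2 or its DMSO replicate 1, and 2 with DESeq2), and in line 1.2, 5 were, where 51.3% and 49.7% of all genes were called. The other 14 members with reads had too few to enter the test. Summed over all V rows, the level was 237 ± 7.23 and 221 ± 15.9 CPM in JQ1 and DMSO of line 1.1, and 272 ± 3.93 and 237 ± 1.34 CPM in JQ1 and DMSO of line 1.2 (SD, n = 2 each). The sum over constant rows was 1604 ± 32.7 and 1433 ± 25.8 CPM in JQ1 and DMSO of line 1.1, and 1854 ± 26.7 and 1561 ± 35.1 CPM in JQ1 and DMSO of line 1.2.

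**Figure D5:**
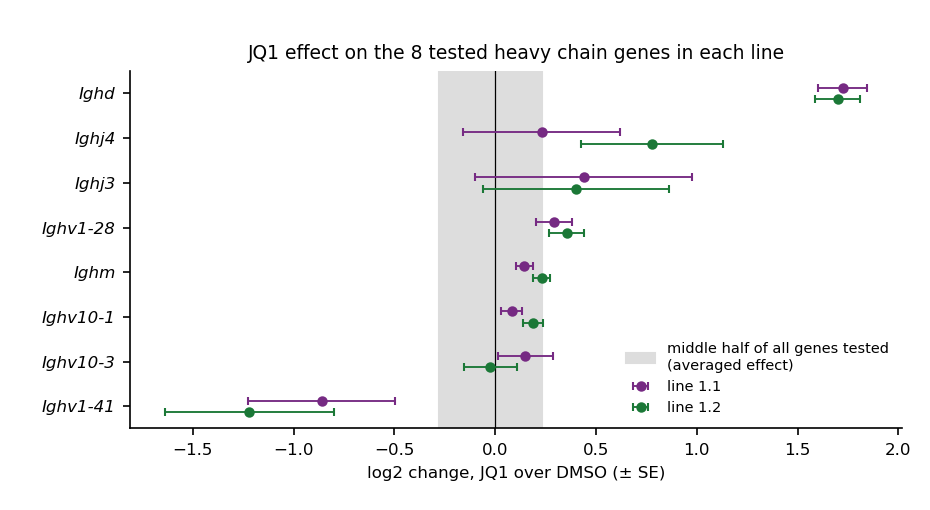
Log2 change of JQ1 over DMSO (± SE from edgeR) for the 8 tested members in line 1.1 (purple) and line 1.2 (green), with the grey band from the lower to the upper quartile (-0.28 to 0.23) of the averaged effect over all 12413 genes tested. Ighd lies far right of the band at 1.72 and 1.7, Ighv1-41 lies left of it, and Ighm and Ighv10-1 lie inside or at its edge.

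The effect of JQ1 was not found to differ between the lines for any member. In edgeR, 0 of the 8 members passed the interaction test, 0 had an unadjusted p under 0.05, and DESeq2 and limma-voom also called 0. Over all genes 0.0644% were called. The largest interaction estimate by size was that of Ighj4, 0.55 (SE 0.53), so differences between lines of the less abundant members could not be resolved at this depth.

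The lines themselves were compared within each treatment. In DMSO, 0 of 8 members were called in line 1.2 minus line 1.1 by edgeR (2 had an unadjusted p under 0.05, limma-voom called 1 and DESeq2 called 0), where 7.31% of all genes were called. The difference in DMSO was 0.12 for Ighm and 0.10 for Ighv10-1. With a library left out, it ran from 0.096 to 0.142 for Ighm and from 0.022 to 0.172 for Ighv10-1. The highest value of each came without line 1.1 DMSO replicate 2. In JQ1, 3 of 8 were called, all higher in line 1.2, where 6.81% of all genes were called. Ighm differed by a log2 of 0.21 (SE 0.04, adjusted p = 0.00104), Ighv10-1 by 0.21 (SE 0.05, adjusted p = 0.00770) and Ighd by 0.31 (SE 0.09, adjusted p = 0.0383). Without JQ1 replicate 1 of line 1.1, or without JQ1 replicate 1 of line 1.2, none of the 8 was called, and without JQ1 replicate 2 of line 1.2, or with DESeq2, 1 was. The call of Ighd was lost in 7 of 19 alternatives. Gm42418 was also higher in line 1.2 JQ1 than in line 1.1 JQ1, and its part in this difference was not tested.

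Factors known to act on the locus moved in both directions. Of 30 tested, 18 fell, 8 rose and 4 did not pass the threshold, with a median log2 change of -0.26. Of all genes tested, 62.2% were called, 31.4% lower and 30.8% higher, and the counts of this and the lists that follow stand beside those shares. Pou2f1 averaged 22.8 ± 1.66 and 81.9 ± 6.204 CPM in JQ1 and DMSO of line 1.1, and 22.8 ± 3.26 and 81.4 ± 3.10 CPM in JQ1 and DMSO of line 1.2 (SD, n = 2 each), a log2 change of -1.84 (SE 0.06, edgeR adjusted p = 1.48e-22). Pou2af1, the octamer coactivator, fell by 0.46 on the log2 scale (SE 0.03). Ikzf1 and Ikzf3, zinc finger regulators of lymphoid genes, changed by -1.14 (SE 0.03) and -0.88 (SE 0.03), and Irf4, which binds immunoglobulin enhancers, by -1.15 (SE 0.04), each with an edgeR adjusted p below that of Pou2af1 (4.53e-15). The factors named so far are the 4 of smallest p and Pou2af1, and all of them fell. The 8 that rose were Myc (0.62), Irf8 (0.62), Id3 (0.61), Foxo1 (0.49), Spib (0.44), Tfe3 (0.39), Yy1 (0.19) and Smc1a (0.12). Ighm, Ighv10-1 and Ighv1-28 rose beside these changes in both directions, and the part of the factors in this was not tested.

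Of the V(D)J recombination and class switching genes, 11 of 20 tested fell, 3 rose and 6 did not pass the threshold, with a median log2 change of -0.26. The count that rose was 1 with library totals, with DESeq2, and without line 1.1 JQ1 replicate 2, line 1.2 JQ1 replicate 1 or line 1.2 DMSO replicate 2. Rag1, a subunit of the recombinase, averaged 17.45 ± 0.56 and 115 ± 1.52 CPM in JQ1 and DMSO of line 1.1, and 9.01 ± 0.33 and 53.9 ± 1.21 CPM in JQ1 and DMSO of line 1.2 (SD, n = 2 each). Its log2 change was -2.65 (SE 0.06, edgeR adjusted p = 4.35e-27), and that of its partner Rag2 was -2.61 (SE 0.11). Xrcc6, the Ku70 subunit of end joining, and Rif1, which protects broken ends, changed by -0.48 (SE 0.03) and -0.52 (SE 0.04).

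The list of RNA processing factors that act on heavy chain transcripts was split, with 4 of 10 tested higher, 4 lower and 2 not past the threshold (median log2 change -0.02). Zfp318, needed in mice for Ighd expression, rose by a log2 of 0.20 (SE 0.05, edgeR adjusted p = 0.000733). It averaged 59.2 ± 0.44 and 52.8 ± 5.09 CPM in JQ1 and DMSO of line 1.1, and 66.2 ± 0.16 and 56.1 ± 4.15 CPM in JQ1 and DMSO of line 1.2 (SD, n = 2 each). Ell2, an elongation factor known from secretory μ and γ chain processing, rose by 1.03 (SE 0.10). The 3′ end cleavage factors Cpsf2, Cpsf3 and Cstf2 changed by -0.62 (SE 0.03), -0.30 (SE 0.04) and -0.27 (SE 0.03).

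All 12 tested genes for proteins that pair with or fold the heavy chain passed the threshold, 7 lower and 5 higher (median log2 change -0.22). Cd79b, a signalling chain of the B cell receptor, averaged 211 ± 1.29 and 398 ± 9.74 CPM in JQ1 and DMSO of line 1.1, and 249.6 ± 1.396 and 432 ± 8.77 CPM in JQ1 and DMSO of line 1.2 (log2 change -0.85, SE 0.03, n = 2 each, edgeR adjusted p = 2.31e-21). The λ light chain constant region Iglc2 changed by -1.46 (SE 0.07) and Vpreb3 by -0.42 (SE 0.04). The κ light chain constant region Igkc, named after its values were seen, changed by -0.28 with an edgeR adjusted p of 5.05e-09, while Ighm rose. Hspa5, the chaperone BiP that holds free heavy chains, rose by 0.94 (SE 0.03).

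Genes next to the locus moved in both directions. Of 12 tested, 5 rose, 2 fell and 5 did not pass the threshold (median log2 change 0.07). The 7 called of 12 lie near the 62.2% called among all genes, and 3 rose with a minimum of 5 CPM in 2 libraries. Esyt2 on the V side rose by 0.51 (SE 0.05). Brf1, Tedc1 and Jag2 on the constant region side rose by 0.31 (SE 0.05), 0.33 (SE 0.07) and 1.33 (SE 0.23). Adam6a and Adam6b, which lie between the V and D segments, had 0 reads.

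Ighd is itself used as a marker of mature B cells, and was set beside other stage markers. Of 6 tested mature B cell markers, Ighd was the 1 that rose and the other 5 fell, with a median of -0.90 over all 6. The 10 B lineage markers all fell (median -0.65), as did 5 of 5 tested plasma cell markers (median -0.55). Of 6 tested early B cell markers, 5 fell and 1 rose (median -2.12). Il7r, the receptor chain for the growth factor IL-7, fell by 4.09 (SE 0.07), and Sox4 rose by 0.19 (SE 0.08). The early markers not tested were Kit, with 0 reads, and Dntt, Igll1 and Vpreb1, at 0.056, 0.066 and 0.34 CPM on average. The mature markers not tested were Fcer2a and Cr2, at 0.041 and 0.034 CPM. Summed, the early B cell markers stood at 80.5 to 84.7 CPM in line 1.1 JQ1, 329.9 to 354.8 in line 1.1 DMSO, 79.0 to 88.5 in line 1.2 JQ1 and 268.7 to 269.1 in line 1.2 DMSO. Summed, the B lineage markers stood at 2877 to 2927 CPM in line 1.1 JQ1, 4275 to 4400 in line 1.1 DMSO, 3060 to 3108 in line 1.2 JQ1 and 4308 to 4408 in line 1.2 DMSO. The part of these markers in the changes of the heavy chain rows was not tested.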

How the data were processed

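Per the labels' protocols, a TruSeq RNA kit gave the 8 RNA-seq libraries. The deposited values are raw read counts per Ensembl gene that the authors did not normalise. The tools of the authors, per the submitters' processing notes, were cutadapt 1.7 and FastQC for the reads, and TopHat, Bowtie2, HTSeq and limma, on GRCm38 (mm10). Annotation release, read length, the handling of multiply mapped reads and the strand setting were not given in the sources used here, so reads of genes that overlap on both strands may be mixed. The 5 HTSeq summary lines were left out (reads with no gene, 12.331 to 14.395% of the reads, and ambiguous reads, 1.537 to 1.674%). Reads with no gene made up 14.212 and 14.146% in line 1.1 JQ1, and 12.562 and 13.08% in line 1.1 DMSO. In line 1.2 they made up 13.999 and 14.395% in JQ1, and 12.331 and 13.12% in DMSO. All JQ1 libraries thus lay above all DMSO libraries, and the part of this in the heavy chain changes was not tested. The summary line for multiply mapped reads was 0 in all 8 libraries, so such reads may have been dropped or assigned before counting.

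Symbols, coordinates and transcripts came from GENCODE M21 on the same build, and 42462 of 43629 genes had a symbol. No promoter of a member is shown. Groups came from the labels. edgeR 4.0.16 in R 4.3.3 (quasi-likelihood, robust, TMM scaling, 4 group means, 4 residual degrees of freedom) tested two-sided the 12413 genes kept by filterByExpr (minimum count 10, minimum total 15), with Benjamini-Hochberg adjustment over all of them and a threshold of 0.05. SE was derived from the F statistic. CPM are edgeR's counts scaled by TMM to a common library size. Shares carry Wilson 95% intervals from scipy 1.17.1. The log2 ratio of Ighd to Ighm used a pseudocount of 0.5. The fit was tested on simulated data.

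Named were constant, D and J rows with at least 10 reads, the 6 V rows with most reads in each line, V rows past the threshold with a mean of 1 CPM, and from each list the 4 genes of smallest p that had a mean of 1 CPM, plus Zfp318, Pou2af1, Rag1 and Rag2. Some genes of the lists are not reported here. Ighv1-18, Igkc, Il7r, Cd2, Cd68, Cdh5 and other rows inside the locus were added after their values were seen. So were the factors of the locus that rose, Sox4 and the stage markers with too few reads to test. Members and lists were chosen with earlier results of these data known. Alternatives were other scalings, DESeq2 1.42.0, limma-voom (limma 3.58.1), other filters and thresholds, a replicate block, fits of only the libraries compared, other denominators and each library left out.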

Additional observations from a re-analysis of the deposited data

How the results depend on the processing

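Of 1513 values of single genes and lists recomputed under another setting, 1453 stayed the same by a fixed rule. For list counts the rule limited the ratio to the main count, without regard to spread. For single genes it asked for the same direction and the same side of the threshold. The averaged JQ1 effects of Ighd, Ighm, Ighv10-1, Ighv1-28 and Ighv1-41 kept both in all 17 or 18 alternatives each, and Ighd ran from 1.64 to 1.78 with a library left out. Every reversal was of an effect that was not called, with a library left out. Ighv10-3 came to -0.0022 averaged without line 1.1 DMSO replicate 1 (range to 0.122), and to 0.0214 and 0.0221 in line 1.2 without its JQ1 replicate 2 and DMSO replicate 1 (range from -0.0703). The Ighd interaction ranged from -0.1667 to 0.1218 (also 0.0846, 0.0084 and 0.0486), Ighj4 in line 1.1 from -0.0624 to 0.4542, and in line 1.2 minus 1.1 in DMSO Ighj4 from -0.4882 to 0.4554 and Ighv1-41 from -0.5482 to 0.0581. DESeq2 called 2 members in line 1.1, 1 in the line difference in JQ1, and 303 and 328 genes in the line differences in DMSO and JQ1. Fits of only the libraries compared called 476 and 1844, and a threshold of 0.01 called 418 and 420. Library totals and limma-voom called 1 member in the line difference in DMSO. The interaction gave 44 genes with no filter. The share of Ighv10-1 was 10.46, 11.02, 10.45 and 10.85% of all heavy chain reads in line 1.1 JQ1, line 1.1 DMSO, line 1.2 JQ1 and line 1.2 DMSO, and 94.69, 94.92, 94.97 and 94.32% of V reads without pseudogenes. The share of Ighd in all heavy chain reads was 1.581% in line 1.1 JQ1, 1.689% in line 1.2 JQ1 and 0.6152% in line 1.2 DMSO. Permuting over all 8 libraries without regard to line gave an exact permutation p of 0.0286 for the same Ighd to Ighm difference of 1.53. That p is also the smallest that its regroupings allow. The summed constant regions changed by 0.1622 with library totals. With each library left out, members called ranged over 2 to 4 in line 1.1, 0 to 2 in the line difference in DMSO and 0 to 3 in that in JQ1. Genes called ranged over 6 to 510 in the interaction (510 without line 1.1 DMSO replicate 1), 340 to 1388 in the line difference in DMSO (1388 without that library, 340 without line 1.2 DMSO replicate 2) and 281 to 1652 in that in JQ1 (281 without line 1.2 JQ1 replicate 1, 1652 without line 1.1 DMSO replicate 1). Library totals moved the median of all genes to -0.04. Replicate numbers did not pair the samples (correlations of deviations -0.039 to 0.059), and the replicate block called 14 genes in the interaction, against 8 without it. Causes of these shifts were not tested. With 2 libraries a group and 4 residual degrees of freedom, J rows and rare V rows were at the limit of the depth.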

Other observations

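Rows that are no heavy chain segments but lie inside the locus also held reads, and all 7 of them with at least 10 reads and enough to test are given here, chosen after their values were seen. The 3 miRNA rows among them on the minus strand lie in the intron between the J segments and Ighm, where the enhancer Eμ is known to lie. Gm22175 at chr12:113425150-113425227 had 119 and 99 reads in line 1.1 JQ1, against 52 and 41 in line 1.1 DMSO, and 93 and 105 in line 1.2 JQ1, against 58 and 71 in line 1.2 DMSO. All JQ1 libraries lay above all DMSO libraries in its counts. Its log2 change averaged 0.96 over lines (SE 0.12, edgeR adjusted p = 2.61e-08). Gm25747 rose by 0.70 (SE 0.19, adjusted p = 0.00204) and Gm24022 by 0.47 (SE 0.18, adjusted p = 0.0256). The call of Gm24022 was lost in 5 of 16 alternatives, DESeq2 among them, with adjusted p up to 0.181. These rows overlap the heavy chain primary transcript, and reads on them cannot be told apart from reads of its intron.

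The lincRNA Gm30948 on the plus strand at chr12:115262684-115287908, among the V segments, fell. It had 36 and 35 reads in line 1.1 JQ1, against 97 and 88 in line 1.1 DMSO, and 38 and 39 in line 1.2 JQ1, against 93 and 109 in line 1.2 DMSO. Its log2 change averaged -1.35 over lines (SE 0.13, edgeR adjusted p = 1.45e-10), and its interaction between lines was -0.01 (SE 0.29). The pseudogene rows Gm9134, Gm9517 and Gm7019 did not pass the threshold, with changes of 0.26 (SE 0.18), 0.38 (SE 0.29) and -0.84 (SE 0.47).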
